A study of Mus musculus with 3 samples.

Results

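The genes of cholesterol synthesis and of its sterol control were followed through 3 states of C2C12, an established mouse myoblast line whose cells fuse into multinucleated myotubes when serum is lowered. The set holds 31 genes picked by their known roles, with earlier results of these data known: 18 enzymes that lead from acetyl-CoA units to cholesterol, 5 regulators around the transcription factor SREBP, 3 sterol transport genes, and 5 genes for the liver X receptors (LXR) and their targets. They are read by 49 probes, out of 18350 genes read by 26918 named probes. A further 14256 of the 41174 probes had no gene name here.

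RNA was hybridised to one-colour Agilent whole mouse genome arrays, 1 array for each of 3 groups, with 200 ng of RNA per labelling. The myoblasts received no treatment. For the BIO cellulates, myotubes were formed over 8 days in 2% horse serum, with the DNA synthesis inhibitor AraC at 10 µM between day 2 and day 4, which removes myoblasts that still divide. The myotubes were then broken into mononucleated pieces, the cellulates, by the microtubule-binding compound myoseverin, for 48 h. The treatment protocol puts its dose at 30 µM, the series text at 20 µM. BIO, an inhibitor of the kinase GSK-3, followed after 24 h and was left for 2 days. Its dose is 2.5 µM in the sample titles and 10 µM in the protocol and the series text. For the neurogenic cellulates, BIO cellulates were given 250 nM reversine for 48 h in the protocol, and 1.5 µM retinoic acid in DMEM/F12 with N2 supplement over 7 days, on laminin-coated dishes. Myotubes, cellulates before BIO and time-matched controls were not analysed here, so the steps of myotube formation, myoseverin and BIO cannot be told apart. The medium of the myoblasts is not given in the sources used here, that of the cellulate groups differed, and its part in the sterol genes was not tested. All groups share the C2C12 line, and nothing in the labels gives a second culture of any group.

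Cholesterol is made from acetyl-CoA through mevalonate, the isoprenoid diphosphates, squalene and lanosterol. When sterols are scarce in the endoplasmic reticulum, the escort protein SCAP carries SREBP to the Golgi, where proteases free its transcription factor part, which turns on most enzymes of the pathway. When sterols are plentiful, INSIG proteins hold SCAP back, while oxysterols activate LXR, which turns on genes of sterol export. Many promoters of the pathway are known to combine a sterol regulatory element with boxes for the factors NF-Y and Sp1.

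Levels are given as log2 of the processed signal minus the log2 of the array's 75th percentile, so that 0 is the 75th percentile of that array. They are compared between arrays for 1 probe and never between genes. With 1 array a group there is no error between cultures, no p-value and no test, and precision is limited by the number of arrays. The only error that could be measured lies within an array: among probes spotted 10 times, 95% of differences between single spots of 2 arrays would stay under 1.40-fold for BIO cellulates against myoblasts. The limits of the second step and of both steps together were 1.32-fold and 1.35-fold. A difference of at least 2-fold was counted. If a probe passed background on just 1 array of a comparison, only a minimum fold (written "at least") is given, and the dim array enters with the probe's own signal or the weakest signal that passed there, whichever is higher. Of the 31 genes, 24 were well above background on all arrays by their brightest probe, 5 on some and 2 on none. Less RNA per cell and fewer cells with that RNA cannot be told apart in these bulk samples.

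Between 45.7% and 50.7% of 43379 spots were well above background and none was saturated. All 8 muscle markers were well above background on each array, and their summed signal, relative to the 75th percentile, was 87.1 in myoblasts, 2113 in BIO cellulates and 1782 in neurogenic cellulates. Each marker was read by its brightest probe. In that reading no endothelial or hepatocyte marker was well above background on any array (0 of 4 for each). The hepatocyte gene Cyp7a1 has another probe, which was well above background on the BIO array. Of other cell types, 1 of 4 macrophage markers and 3 of 4 adipocyte markers were well above background on every array, and 2 to 3 of 5 neuronal and of 5 glial markers, with summed signals of 0.735 to 1.42 for those nervous system lists. On the neurogenic array 2 of 5 neuronal markers were well above background, and 3 of 5 on each of the other arrays. Over all genes, 65.2% of the genes past 2-fold between BIO cellulates and myoblasts were higher, against 9.07% with arrays scaled to their median, 76.9% with the percentile taken over bright probes, 50.4% with quantile normalisation and 52.7% with spike-in scaling. For neurogenic against BIO cellulates this share was 69.9%, against 83.5% over bright probes and 91.9% with spike-ins. For neurogenic cellulates against myoblasts it was 54.7%, against 11.5%, 78.9% and 71.2% with median, bright-probe and spike-in scaling. Median scaling moved the median of all genes from 0.00 to -0.66 in BIO cellulates against myoblasts and from -0.06 to -0.79 in neurogenic cellulates against myoblasts.

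Most enzymes of the pathway had less RNA in BIO cellulates than in myoblasts, and less again in neurogenic cellulates. In BIO cellulates against myoblasts, 6 of 16 enzymes compared were at least 2-fold lower and 0 were higher, with a median log2 ratio of -0.89. Over all 31 genes, 28 could be compared, of which 8 were at least 2-fold lower and 2 higher. The background is 6.00% of all genes lower and 11.2% higher, with a median of 0.00. From BIO to neurogenic cellulates, 3 of 16 enzymes were at least 2-fold lower and 1 higher, with a median of -0.66. Over all members this comparison gave 3 of 27 lower and 5 higher, against a background of 1.80% lower and 4.16% higher and a median of -0.17. Neurogenic cellulates against myoblasts, which joins both steps and shares their arrays, had 10 of 17 enzymes at least 2-fold lower and 1 higher. Its median over the enzymes was -1.78. Of all members, 13 of 28 were lower and 4 higher there, against a background of 10.0% and 12.1% and a median of -0.06. Under each scaling tried, the enzymes' median stayed below 0, between -0.72 and -1.61 for the first comparison, -0.30 and -0.67 for the second, and -1.43 and -2.51 for the third.

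Of the 15 enzymes that were well above background on every array, 13 had their highest level in myoblasts, a lower one in BIO cellulates and their lowest in neurogenic cellulates. Over all genes measured on every array, 3677 of 10663 (34.5%) had that order. The count of enzymes depends on the scaling: it was also 13 with median scaling (61.1% of all genes) and quantile normalisation (26.7%), but 11 with the bright-probe percentile (2022 of all genes) and 10 with spike-in scaling (17.0% of all genes). With normexp background correction it was 12 (36.1%). Tm7sf2 left the order in each of the last 3 settings, Dhcr7 with the bright-probe percentile and with spike-ins, and Sc5d with spike-ins. The 2 enzymes outside it in all of these were the consecutive kinase and decarboxylase of mevalonate processing, Pmvk and Mvd.

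**Figure D1:**
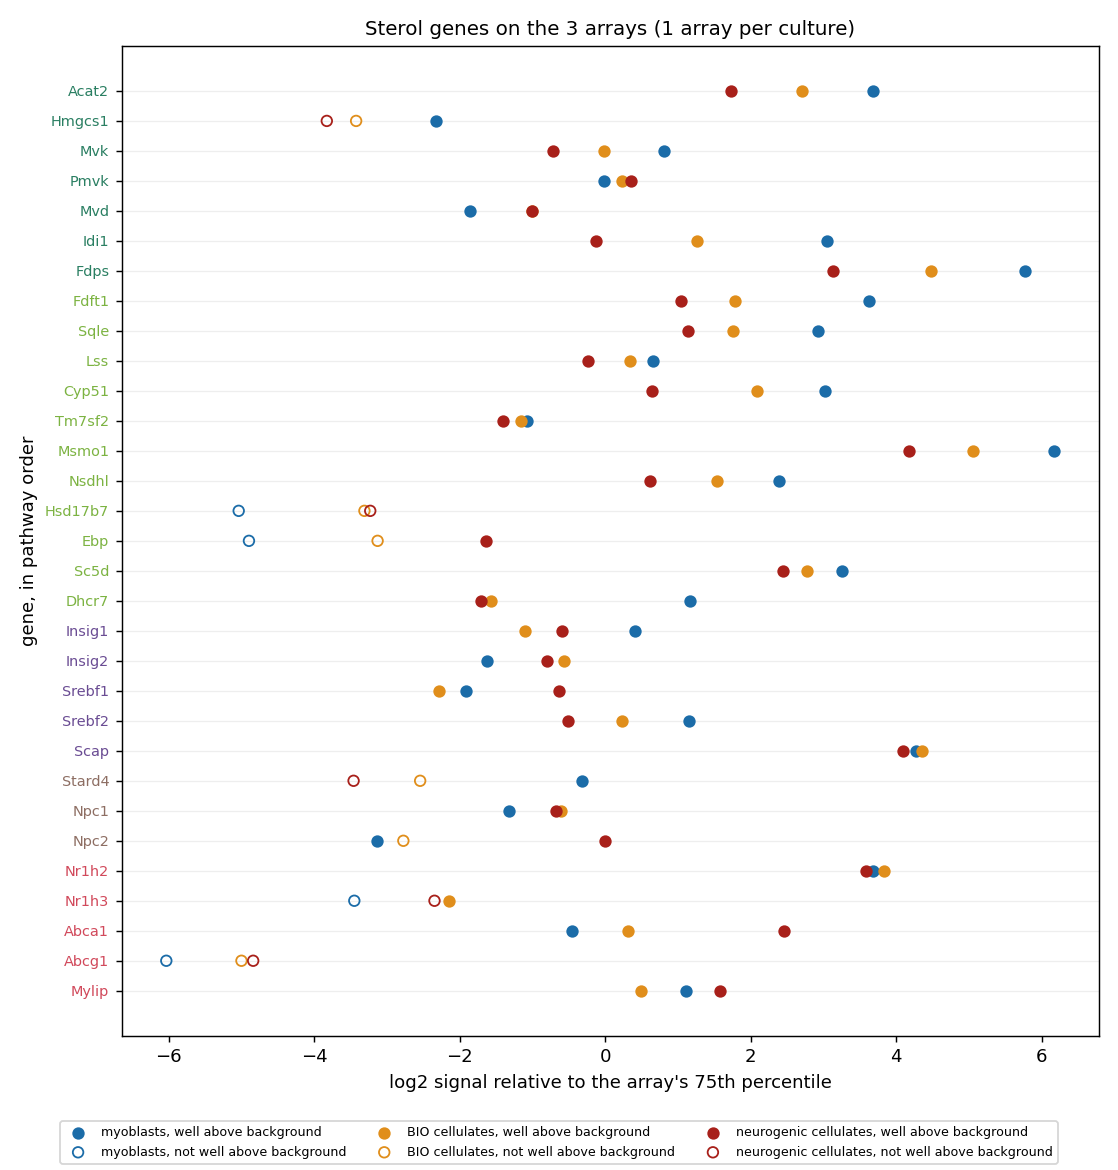
Log2 signal of each of the 31 genes relative to the array's 75th percentile (x axis), by its brightest probe, with genes in pathway order and 1 point per array; filled points were well above background and open points were not. Name colours mark the mevalonate enzymes, the squalene and sterol enzymes, the SREBP regulators, the transport genes and the LXR group from top to bottom. At this scaling, the points of 13 of 15 enzymes measured on all arrays run from neurogenic cellulates at the left to myoblasts at the right, while Abca1 runs the other way.

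The mevalonate part of the pathway builds the isoprenoid diphosphates that serve sterols, dolichol, ubiquinone and protein prenylation. Idi1, which isomerises isopentenyl diphosphate, had levels of 3.05 in myoblasts, 1.26 in BIO cellulates and -0.12 in neurogenic cellulates. It was 3.45-fold lower after the first step, a further 2.62-fold lower after the second and 9.03-fold lower in all, the greatest difference among the members measured on both arrays. Fdps, the farnesyl diphosphate synthase, had levels of 5.77, 4.48 and 3.13 in the same order. Its steps were nearly equal, at 2.45-fold and 2.55-fold lower, and came to 6.25-fold.

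Acat2, the cytosolic thiolase that joins acetyl-CoA units, also stepped down evenly. Its levels were 3.68, 2.70 and 1.74, so that each step fell just short of 2-fold (1.97-fold and 1.96-fold) and the whole was 3.84-fold lower. Mvk, the mevalonate kinase, had levels of 0.80, -0.020 and -0.71 and was 2.86-fold lower in neurogenic cellulates than in myoblasts. Its other probe gave a log2 ratio of -1.63 for that comparison, close to the -1.52 of the brightest one. Hmgcs1, the synthase that makes HMG-CoA in the cytosol, was well above background in myoblasts only, at -2.33, and dim at -3.42 and -3.83. Its minimum folds, 1.33 in BIO cellulates and 1.18 in neurogenic ones, were too small to count.

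The next enzymes after Mvk, which add a phosphate and then remove a carboxyl group, did not share this order. Pmvk had levels of -0.022, 0.23 and 0.36, with each difference inside the spot limits. Mvd was at -1.86 in myoblasts and at -1.01 in BIO cellulates, with nearly the same level in neurogenic cellulates, and so 1.81-fold higher than in myoblasts in either. The size of this difference depends on the processing. Over the alternatives, the log2 ratio of Mvd to myoblasts ran from 0.14 to 1.02 in BIO cellulates and from 0.13 to 1.20 in neurogenic cellulates. The order of the pathway therefore holds both neighbours that were lower and neighbours that were not.

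Of the first enzymes committed to sterols, Fdft1 and Sqle had the larger part of their difference in the first step and Lss in the second. Fdft1, the squalene synthase, had levels of 3.62, 1.78 and 1.05. It was 3.57-fold lower in BIO cellulates than in myoblasts, 1.67-fold lower again in neurogenic cellulates, and 5.95-fold lower in all. Sqle, the squalene epoxidase, had levels of 2.93, 1.76 and 1.14, which is 2.25-fold and then 1.54-fold lower. Lss, which closes the rings to lanosterol, had levels of 0.66, 0.34 and -0.23 and was 1.86-fold lower over both steps, the enzyme nearest to 2-fold among those not counted there. Its first step, 1.25-fold, lies inside the spot limit. With median scaling the log2 ratios of Lss were -1.04 and then -0.58, and with spike-ins -0.46 and then -0.21, so that the first step was the larger.

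Among the enzymes that turn lanosterol into cholesterol, Dhcr7 and Cyp51 divided their differences oppositely between the steps. Dhcr7, the reductase that ends one branch of the pathway, had levels of 1.16, -1.57 and -1.71. It was 6.64-fold lower in BIO cellulates than in myoblasts and then only 1.10-fold lower, within the spot limit, for 7.30-fold in all. Its first log2 ratio, -2.73, was -1.59 with normexp and -2.14 with the median of its probes, and the second turned to 0.22 with spike-in scaling. Its other probe was well above background in myoblasts only. Cyp51, the lanosterol demethylase, had levels of 3.02, 2.09 and 0.64, with 1.91-fold in the first step and 2.73-fold in the second, or 5.20-fold in all. A second probe of Cyp51 gave log2 ratios of -0.84 and -1.33 for these steps, beside -0.93 and -1.45 by the brightest probe. The division of Cyp51 depends on the scaling. With median scaling its log2 ratios were -1.65 in the first step and -1.46 in the second, and with spike-ins -1.07 and -1.09. The difference between genes in how the steps divide has no test here.

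Msmo1 and Nsdhl, which act on the methyl groups at the same carbon of the sterol ring, stepped down more evenly. Msmo1, the methylsterol monooxygenase, had levels of 6.17, 5.06 and 4.17 and was 2.17-fold and then 1.85-fold lower. Nsdhl, the dehydrogenase that follows, had levels of 2.39, 1.54 and 0.61 and was 1.80-fold and then 1.90-fold lower, or 3.42-fold in all. With the median of its probes, which takes in the dim one, the last log2 ratio of Nsdhl was -0.23 in place of -1.78. Sc5d, a desaturase, was 1.76-fold lower over both steps, and Tm7sf2, a reductase, differed by at most 0.33 on the log2 scale.

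Ebp, a sterol isomerase, was the enzyme counted as higher. It was dim in myoblasts at -4.90 and in BIO cellulates at -3.13, and well above background in neurogenic cellulates at -1.64, at least 2.13-fold above BIO cellulates and at least 4.26-fold above myoblasts. With normexp these minimum log2 ratios were 0.15 and 0.87 in place of 1.09 and 2.09, so that neither passed 2-fold. Hsd17b7, a ketosteroid reductase, has a brighter probe that was dim on all arrays and another that was above background on the neurogenic array only, at -2.10, so no comparison was made. Dim probes that came up on the neurogenic array were also seen beside bright probes of the same gene. In genes with a probe well above background on all arrays, 192 of 2360 further probes (8.14%) that were dim on the other arrays passed on the neurogenic array, against 81 of 2249 (3.60%) for the BIO array. Among the members this held for 2 of 8 further probes, those of Pmvk and Nsdhl. The bright probe of Nsdhl was lower on the neurogenic array than on either other array, and that of Pmvk higher by 0.13 and 0.38 on the log2 scale. The part of this shift in the values of Ebp was not tested.

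**Figure D2:**
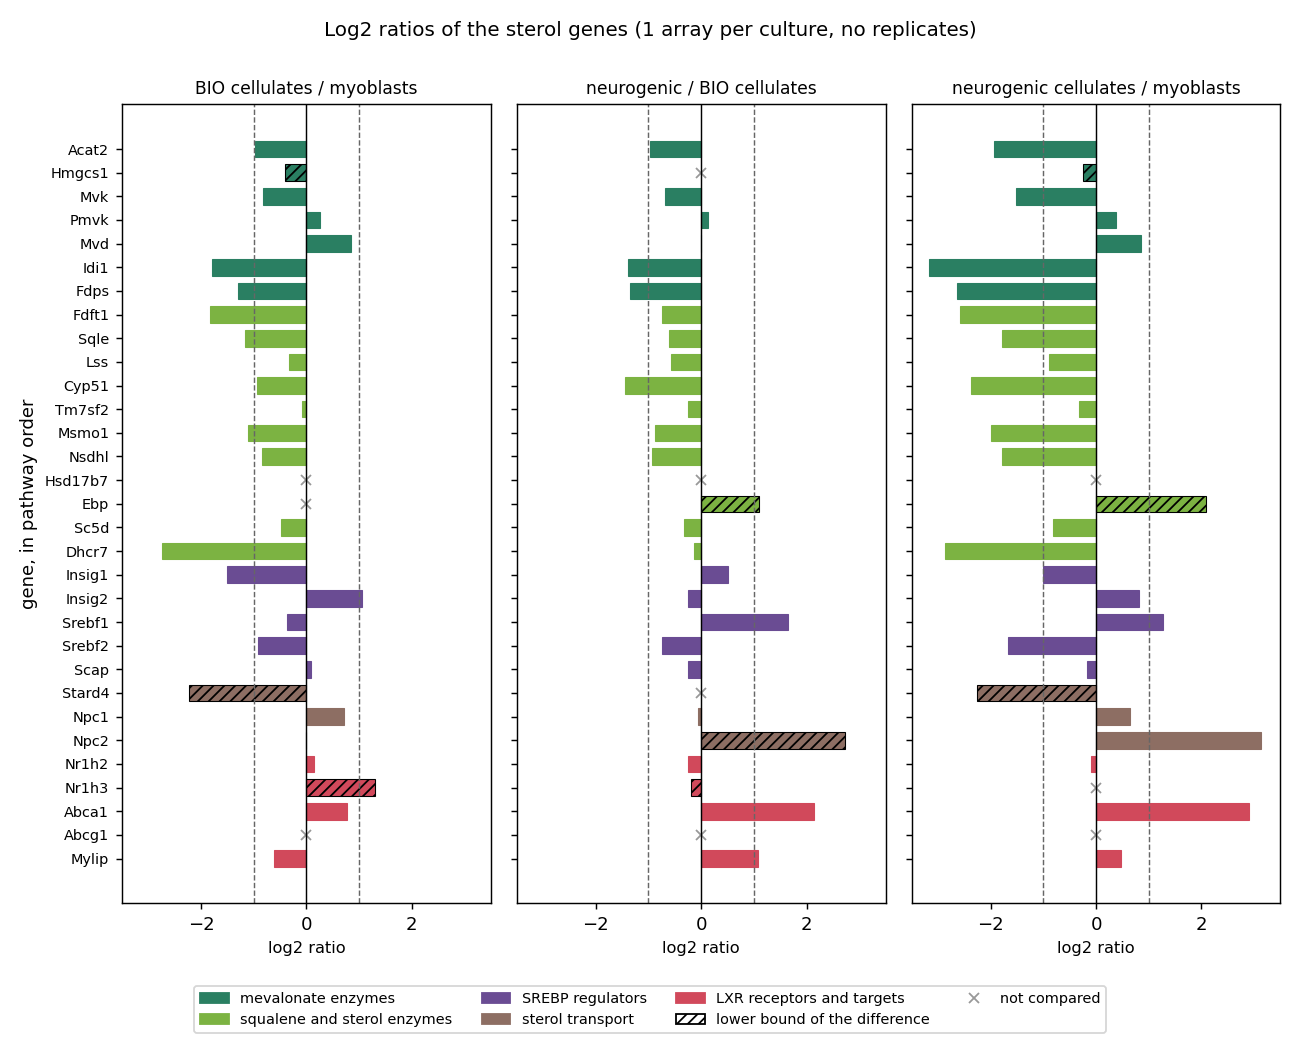
Log2 ratios of the 31 genes for BIO cellulates against myoblasts, neurogenic against BIO cellulates, and neurogenic cellulates against myoblasts, as bars coloured by role; hatched bars are lower bounds, crosses were not compared, and dashed lines mark 2-fold. The enzymes lie mostly left of 0 in each comparison, down to -3.17 for Idi1, and Abca1, Npc2 and Ebp lie to the right.

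The promoters of the members, lower or not, were searched for shared letters. RefSeq windows of 300 bases (250 before to 50 after a start, build GRCm38.p6) were at hand for 25 of the 31 genes, among them 15 enzymes, and not for Fdps, Fdft1, Sqle, Stard4, Npc1 and Abcg1. The windows below were picked after the values were seen: Idi1, Dhcr7 and Cyp51 as the enzymes with the lowest ratios that have a window, Hmgcs1 for its sterol regulatory element, and Abca1 as a gene with the opposite order. Capitals mark CCAAT, or ATTGG where it lies on the other strand, and TCACNCCAC. The windows are those of Idi1 at chr13:8885356-8885655 on the plus strand, Dhcr7 at chr7:143829964-143830263 on the plus strand, Cyp51 at chr5:4104648-4104947 on the minus strand, Hmgcs1 at chr13:119690101-119690400 on the plus strand and Abca1 at chr4:53159846-53160145 on the minus strand, each written 5′ to 3′ along the gene.
Idi1: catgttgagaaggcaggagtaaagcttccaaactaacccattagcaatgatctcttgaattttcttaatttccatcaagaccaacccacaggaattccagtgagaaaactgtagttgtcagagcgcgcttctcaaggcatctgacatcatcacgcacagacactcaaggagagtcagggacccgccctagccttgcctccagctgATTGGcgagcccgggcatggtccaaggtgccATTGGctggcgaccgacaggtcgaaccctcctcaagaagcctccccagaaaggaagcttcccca
Dhcr7: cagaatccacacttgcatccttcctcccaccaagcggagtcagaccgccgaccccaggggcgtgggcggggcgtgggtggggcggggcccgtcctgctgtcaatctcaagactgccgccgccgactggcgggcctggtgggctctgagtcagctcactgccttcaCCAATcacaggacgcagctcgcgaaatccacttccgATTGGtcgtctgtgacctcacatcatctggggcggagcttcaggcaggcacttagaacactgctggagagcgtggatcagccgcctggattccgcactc
Cyp51: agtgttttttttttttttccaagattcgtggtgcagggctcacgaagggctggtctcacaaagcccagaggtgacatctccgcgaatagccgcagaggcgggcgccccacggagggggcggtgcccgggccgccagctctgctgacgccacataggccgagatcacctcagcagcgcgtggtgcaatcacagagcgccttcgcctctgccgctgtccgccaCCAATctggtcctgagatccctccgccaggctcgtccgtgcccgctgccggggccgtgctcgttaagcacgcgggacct
Hmgcs1: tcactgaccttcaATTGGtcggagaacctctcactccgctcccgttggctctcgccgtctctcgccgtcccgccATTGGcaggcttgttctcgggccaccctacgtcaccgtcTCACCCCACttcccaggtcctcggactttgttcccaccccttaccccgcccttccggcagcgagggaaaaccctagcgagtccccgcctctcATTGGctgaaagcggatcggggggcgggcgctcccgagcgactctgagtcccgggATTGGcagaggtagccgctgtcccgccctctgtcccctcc
Abca1: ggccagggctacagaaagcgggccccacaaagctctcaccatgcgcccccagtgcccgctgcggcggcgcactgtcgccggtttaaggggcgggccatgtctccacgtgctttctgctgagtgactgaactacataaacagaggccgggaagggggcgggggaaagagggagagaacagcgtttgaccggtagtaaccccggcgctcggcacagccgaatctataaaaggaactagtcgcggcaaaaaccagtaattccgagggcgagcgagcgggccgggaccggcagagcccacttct

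The CCAAT box, known to be bound by NF-Y, is written in Idi1 2 times, in Dhcr7 2 times, in Cyp51 1 time and in Hmgcs1 4 times, and not in the window of Abca1. Dhcr7 has 2 further windows in the table, neither of which holds it. On either strand, CCAAT stood in the windows of 14 of 15 enzymes (93.3%), all but Acat2, and of 6 of 10 other members (60.0%). It stood in those of 11096 of 27025 genes (41.1%). A gene with several windows has more chances to hold it, and among genes with 1 window it was found in 12 of 13 enzymes (92.3%) against 38.2% of genes. The sterol regulatory element TCACNCCAC, searched on both strands, was found in Hmgcs1 only, from -137 to -129 relative to the start, against 1.44% of genes. Without its last base, as TCACNCCA, it was found in 3 of 25 members (Hmgcs1, Msmo1 and Srebf2) against 4.97% of genes. None of the 9 members at least 2-fold lower that have a window held the full letters, which says only that those letters are not in these windows.

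GGGCGG, the core of Sp1 boxes, stood on either strand in 22 of 25 members (88.0%) against 38.2% of genes. The members' windows were also richer in G and C, with a median of 62.7% against 52.7% for all genes, so a GC-rich word has more chances there. CACGTG, the E-box, which reads the same on both strands, stood in 6 of 25 members (24.0%) against 8.09% of genes. In Hmgcs1 the sterol element lies between CCAAT boxes that start at -176 and -45, and it overlaps neither. These matches are descriptions of letters and do not show binding. The enzymes that were not lower hold CCAAT too, such as Mvd with boxes starting at -60 and -27.

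**Figure D3:**
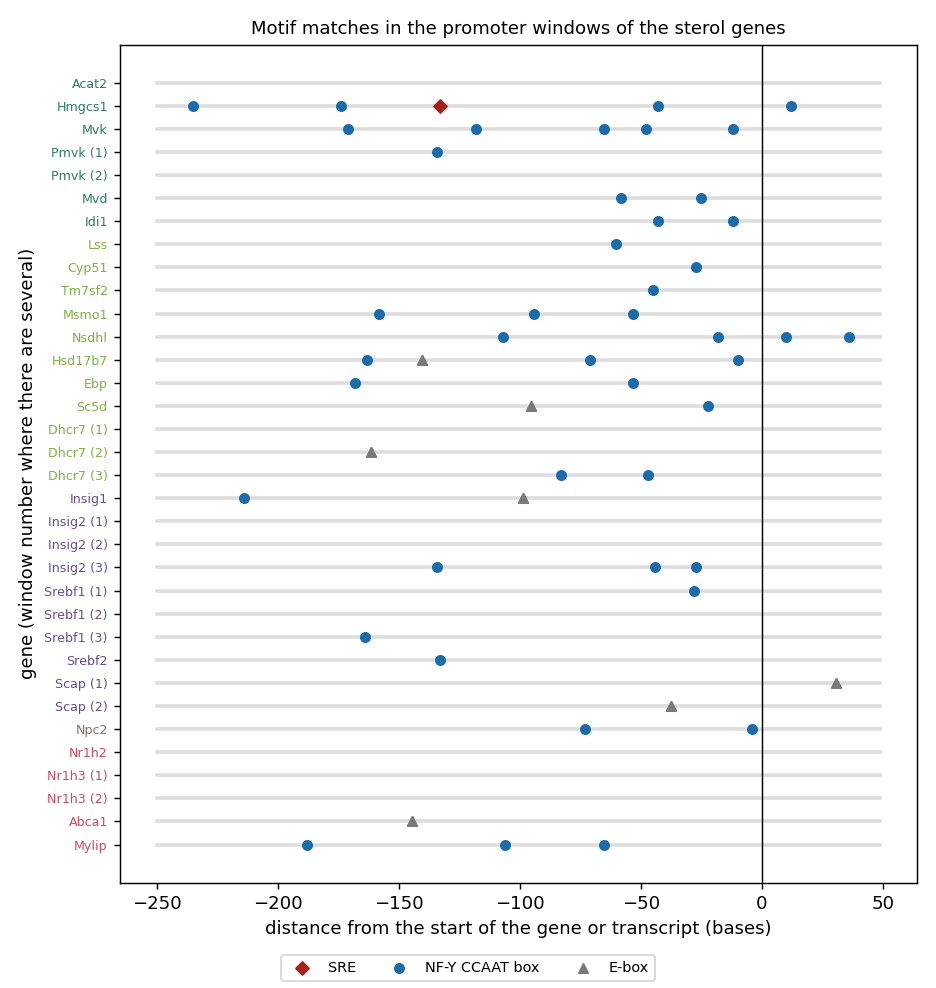
Places of the sterol regulatory element TCACNCCAC, the CCAAT box and the E-box CACGTG in the RefSeq promoter windows of 25 genes, by distance in bases from the start; grey lines are the windows and numbers in brackets tell apart several windows of a gene. CCAAT boxes lie in the windows of 14 of 15 enzymes, and the only sterol element is that of Hmgcs1.

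Among the regulators, the pair of Insig genes went opposite ways and the pair of Srebf genes did so in the second step. Insig1, which retains SCAP and is itself a target of SREBP, had levels of 0.41 in myoblasts, -1.10 in BIO cellulates and -0.60 in neurogenic cellulates. It was 2.85-fold lower in BIO cellulates and 1.42-fold higher again in neurogenic cellulates, where it stood 2.00-fold below myoblasts, at the limit. For the first of these log2 ratios, the median of its probes gave -0.75 and normexp -0.92 in place of -1.51. Insig2, the homologue that does not depend on SREBP in the same way, had levels of -1.62, -0.56 and -0.80, 2.09-fold higher in BIO cellulates than in myoblasts. That ratio was 0.34 on the log2 scale with median scaling and 0.71 with normexp, against 1.06.

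Srebf2, whose product drives mainly the cholesterol genes, had levels of 1.16, 0.24 and -0.51 and so the same order as the enzymes, 3.18-fold lower over both steps. Its other probe gave a smaller log2 ratio, -0.82 in place of -1.67. Srebf1, whose product drives mainly fatty acid genes and which LXR is known to turn on, had levels of -1.91, -2.28 and -0.63. It was 3.13-fold higher in neurogenic than in BIO cellulates and 2.42-fold higher than in myoblasts. Normexp gave 0.59 and 0.70 for these log2 ratios in place of 1.65 and 1.28, both under 2-fold, and median scaling gave 0.55 for the second. Scap, the escort, had levels of 4.27, 4.35 and 4.09, which differ by less than the spot limits. Among these 5 regulators, Scap alone was under 2-fold in all comparisons.

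The transport genes had no order in common. Stard4, a cytosolic sterol carrier and a known SREBP target, was well above background in myoblasts at -0.32 and dim at -2.54 and -3.46, which puts it at least 4.68-fold below myoblasts in BIO cellulates and at least 4.78-fold below in neurogenic ones. With normexp these minimum log2 ratios were -0.65 and -0.88 in place of -2.23 and -2.25, so that neither passed 2-fold. Npc2, which hands cholesterol on inside the lysosome, was at -3.13 in myoblasts, dim at -2.77 in BIO cellulates and at -0.0014 in neurogenic cellulates. It was 8.75-fold higher in neurogenic cellulates than in myoblasts and at least 6.65-fold higher than in BIO cellulates. With normexp these log2 ratios were 1.55 and 1.14 in place of 3.13 and 2.73, still past 2-fold. Npc1, its partner in the lysosomal membrane, had levels of -1.32, -0.61 and -0.67 and was 1.57-fold higher in neurogenic cellulates than in myoblasts.

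Of the LXR group, the export gene Abca1 had the largest difference. The levels of Abca1, which moves cholesterol out of the cell, were -0.45, 0.31 and 2.45, or 1.70-fold higher in the first step, 4.42-fold in the second and 7.49-fold in all. Mylip, whose product marks lipoprotein receptors for breakdown, had levels of 1.11, 0.49 and 1.57 and was 2.12-fold higher in neurogenic than in BIO cellulates. With normexp background correction that log2 ratio of Mylip was 0.74, under 2-fold, in place of 1.08, and that of Abca1 1.70 in place of 2.14. Abcg1, another exporter, was dim on all arrays. Nr1h2, which encodes LXR beta, had levels of 3.69, 3.84 and 3.58. Nr1h3, for LXR alpha, was well above background in BIO cellulates only, at -2.15, at least 2.46-fold above myoblasts and at least 1.15-fold above neurogenic cellulates. The differences of Nr1h2 and the second one of Nr1h3 lie inside the spot limits. With normexp the first log2 ratio of Nr1h3 was 0.75, under 2-fold.

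**Figure D4:**
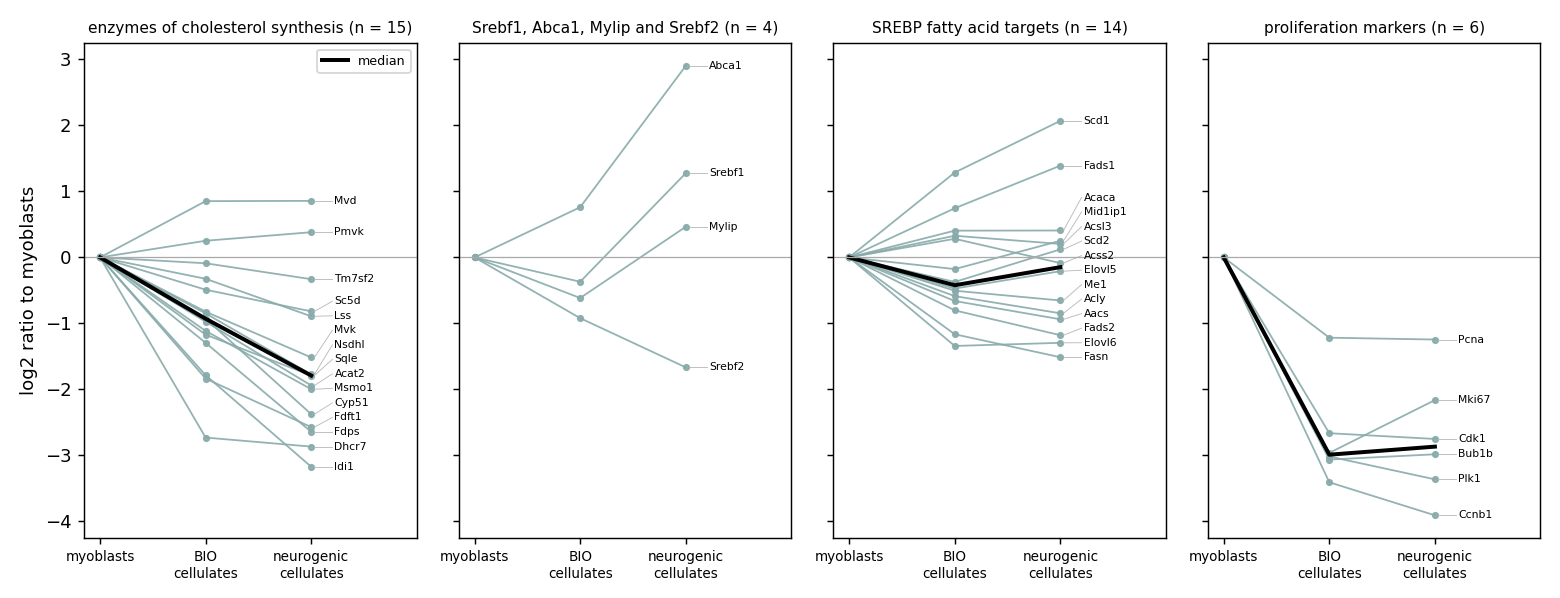
Log2 ratio to myoblasts on the 3 arrays for 15 enzymes, for 4 regulators and LXR targets, for 14 fatty acid genes and for 6 proliferation markers; each thin line is a gene well above background on all arrays and black lines are medians. Most enzymes descend in both steps, to -3.17 for Idi1, the fatty acid genes end between -1.51 for Fasn and 2.07 for Scd1, and the proliferation markers descend in the first step.

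In neurogenic cellulates against myoblasts, 4 lists of genes around the pathway had 0.0% to 27.3% of their compared members at least 2-fold lower. The share was 58.8% for the enzymes and 10.0% for all genes. Of 16 SREBP targets in fatty acid synthesis, 2 were at least 2-fold lower and 2 higher in BIO cellulates than in myoblasts (all genes 6.00% and 11.2%), and 0 of 15 passed in either direction in the second step (all genes 1.80% and 4.16%). Fasn, the fatty acid synthase, was 2.85-fold lower in neurogenic cellulates than in myoblasts, and Elovl6, an elongase, 2.45-fold lower. The desaturase genes did not go together: Fads2 was 2.26-fold lower there, while Scd1 was 4.20-fold and Fads1 2.62-fold higher. Scd2 was only 1.09-fold higher. Scd1 and Fads1 were near background in myoblasts, with intensities of 21.5 and 20.8 where the weakest signal that passed was 13.6. The list's median log2 ratio over both steps was -0.09, beside -1.78 for the cholesterol enzymes and -0.06 for all genes.

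Of 14 genes that use the isoprenoids for other ends, 11 could be compared between neurogenic cellulates and myoblasts, with 3 lower and 1 higher (all genes 10.0% and 12.1%). Fntb, a farnesyltransferase subunit, was 2.24-fold lower, Rabggta, a subunit of the transferase for Rab proteins, 2.44-fold and Pdss1, of ubiquinone synthesis, 2.01-fold. Coq2, also of ubiquinone synthesis, was at least 4.37-fold higher by a probe that was dim on the other arrays. Of 12 genes of SREBP processing and turnover, 10 were compared between BIO cellulates and myoblasts, with 1 lower (all genes 6.00%). This was Mbtps1, the first protease that cuts SREBP, at 2.60-fold. In neurogenic cellulates against myoblasts, 2 of 11 were higher (all genes 12.1%), among them the sterol-binding gene Pgrmc1 at 3.20-fold. Of 20 genes of esterification, oxysterols and lipoprotein handling, 18 were compared there, with 2 higher and 1 lower (all genes 12.1% and 10.0%). The lipoprotein gene Apoe (2.84-fold) and the lysosomal lipase gene Lipa (at least 2.85-fold) were higher, while the caveolin gene Cav1 was 2.79-fold lower. In BIO cellulates against myoblasts, 1 of 17 genes of this list was higher and 0 were lower (all genes 11.2% and 6.00%). This was Cyp27a1, which makes an oxysterol, at 2.15-fold. It was near background, with intensities of 21.4 in myoblasts and 29.2 in BIO cellulates, where the weakest signals that passed were 13.6 and 17.3.

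By their medians, the proliferation markers that could be compared went with the enzymes in the first step and not in the second. In BIO cellulates against myoblasts, 6 of 6 markers compared were at least 2-fold lower (all genes 6.00%), with a median log2 ratio of -2.99. Ccnb1, the cyclin of mitosis, was 10.6-fold lower. Of the 10 markers listed, 3 were dim on both arrays (Top2a, Aurkb and Mcm2) and Rrm2 had no probe. From BIO to neurogenic cellulates, 0 of 8 were lower and 1, Mcm2, was higher (all genes 1.80% and 4.16%). A count of 0 lower is thus close to the background. The markers' median was 0.03, beside -0.66 for the enzymes and -0.17 for all genes. Over the 6 markers well above background on both arrays it was -0.06, beside -0.69 for the enzymes and -0.18 for all genes so measured. In neurogenic cellulates against myoblasts, 6 of 8 were lower and 2 higher (all genes 10.0% and 12.1%). The higher ones, Mcm2 (at least 5.06-fold) and Top2a (at least 2.465-fold), were dim on the other arrays. The part of proliferation in the lower enzyme levels of the first step was not tested.

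**Figure D5:**
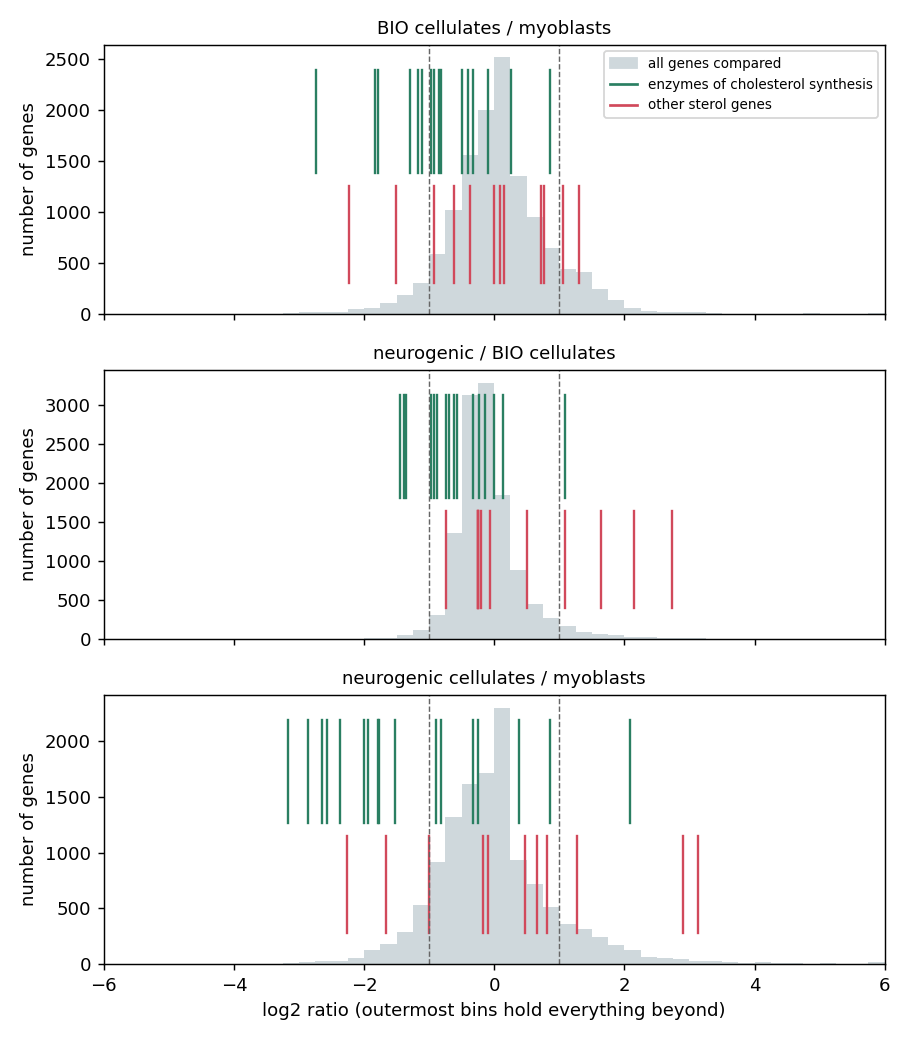
Number of genes by log2 ratio (grey bars) for each of the 3 comparisons, with a vertical line for each enzyme (green) and each other sterol gene (red) and dashed lines at 2-fold; the heights of the coloured lines carry no value, and genes whose bound gives no fold are set at 0. The enzymes' medians of -0.89, -0.66 and -1.78 lie left of the medians of all genes, 0.00, -0.17 and -0.06.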

How the data were processed

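RNA of 3 C2C12 cultures was measured on 1 array each. Per the file headers, the deposited scanner files hold spot intensity from Agilent Feature Extraction 10.7.3.1 (array design 014868, probes placed on mm9), background-subtracted. The authors' deposited table holds log2 values of the same arrays, shifted against the scanner files by 0.00, 0.67 and 0.23 (myoblast, BIO, neurogenic), close to each array's 75th percentile (0.00, 0.66 and 0.22). It served as an alternative.

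Control and outlier spots were left out, spots of a probe averaged, and log2 processed intensity set against the array's 75th percentile. Probes were named by accession through RefSeq, and a gene was read by its brightest probe. Folds of at least 2 were counted. Nothing was tested, since each group has 1 array. The scripts were checked on simulated data. Alternatives were other scalings, normexp background correction (limma 3.58.1, R 4.3.3, offset 50), other probe filters and probe choices, the deposited table and a 1.5-fold limit. Normexp used median spot signals because the files have no mean signal column. Scaling to spike-ins, the shortened sterol element and the look at genes with 1 promoter window were added after seeing the data. Pandas 2.3.3 and numpy 2.4.6 were used.

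The members and gene lists were chosen with earlier results of these data known. Members at least 2-fold different in any comparison are given on every array. The plan was to name up to 4 such genes of each other list per comparison, and some further genes are named beside them. Promoters were to be printed for lower members that hold the sterol element, of which there were 0, so those shown were chosen after the values were seen.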

Additional observations from a re-analysis of the deposited data

How the results depend on the processing

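With 1 array a group, no replicate could be left out, and no paired analysis was possible because the labels give no replicate numbers. Of 87 summary values under the alternatives, 65 kept their size and direction, 21 moved and 1 reversed. Of 727 values of single members, 542 stayed within 1 standard deviation of the difference between single spots, and 185 moved further. Direction was checked only for ratios past 2-fold, of which 0 reversed, so small ratios among the 542 can change sign. Tm7sf2 in BIO cellulates against myoblasts, for example, went from -0.09 to 0.08 with the percentile over bright probes. In BIO cellulates against myoblasts (8 members lower, 2 higher, median -0.55), median scaling gave 18 lower, 0 higher and a median of -1.27. The count of higher members there was 0 with quantile normalisation and with normexp, 5 with no filter on dim probes, and 1 with genes above background on both arrays, with the deposited table and with spike-in scaling. A 1.5-fold limit gave 14 lower and 5 higher. In neurogenic against BIO cellulates (3 lower, 5 higher, median -0.25), the higher count was 2 with normexp and 3 with genes above background on both arrays or the deposited table. A 1.5-fold limit gave 10 lower, and spike-in scaling turned the median to 0.10, where that of all genes went from -0.17 to 0.17. In neurogenic cellulates against myoblasts (13 lower, 4 higher, median -0.86), the median was -1.59 with median scaling, -0.51 with the percentile over bright probes and -0.33 when the probes of a gene were summarised by their median. The higher count was 2 with normexp, 7 with no filter and 7 at 1.5-fold. Idi1, Fdps, Fdft1, Sqle and Dhcr7 were past 2-fold in BIO cellulates against myoblasts under 9 of 9 alternatives, and Insig2 under 5 of 9. Insig1 was past 2-fold in neurogenic cellulates against myoblasts under 4 of 9. Naming probes by a gene name column was not run, since such a column was not used here. The causes were not tested. Signals near background limit Hmgcs1, Stard4, Npc2, Nr1h3, Ebp, Hsd17b7 and Abcg1, and outside the members Scd1, Fads1 and Cyp27a1, among others.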
